A study of Mus musculus with 112 samples.

Results

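The epididymal fat of BALB/cJ mice on the control diet (8 mice) was compared with the fat of control-diet mice of 6 other inbred or hybrid strains (8 mice each, 48 in all), out of 112 microarrays in the series. The members were chosen by strain label and diet label alone. All mice were males from one supplier, housed singly, fed a purified AIN93M-based diet from 8 to 22 weeks of age and fasted overnight before the fat was taken, and each array held the RNA of 1 mouse. The groups were BALB/cJ (labelled Balbc/J), 129S1/SvImJ, C57BL/6J (labelled C57BL6/J), B6C3F1/J, C3H/HeJ, CBA/J and DBA/2J, each with 8 control and 8 calorically restricted (CR) mice. The control diet was itself a fixed ration. Control mice of the 6 other strains received 24 g of food a week, whereas BALB/cJ controls received 31 g, because BALB/cJ mice lost weight quickly on the smaller restricted ration. BALB/cJ CR mice then received the 24 g that was the control ration elsewhere. Strain and ration are therefore joined in this comparison and cannot be told apart. The CR mice of the 6 other strains all began on the same ration, below 24 g a week. That ration was cut further partway through the diet in 129S1/SvImJ and C57BL/6J alone. The CR groups used as a reference below thus differed in depth of restriction. B6C3F1/J is the first-generation hybrid of C57BL/6J and C3H/HeJ, so these 3 groups are related.

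White adipose tissue stores triacylglycerol in adipocytes and holds macrophages, other immune cells, vessels and matrix. As fat expands, macrophages gather around adipocytes, and leptin, the hormone adipocytes secrete in proportion to their store, goes up. CR shrinks the store, lowers macrophage and leptin transcripts, and raises the genes of fatty acid synthesis. The comparison addresses whether control BALB/cJ fat already lay where restricted fat of other strains lies.

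The labels and tissue were checked first. Zhx2, a transcriptional repressor of which BALB/cJ is known to carry a low-expressing allele, had log2 signals of 6.82, 6.90 and 7.04 in BALB/cJ controls (lowest, median and highest of 8), against 8.62, 9.03 and 9.32 in the 48 other controls. The BALB/cJ CR mice averaged 6.93. The 2 sets of control values did not overlap, so each BALB/cJ control array carried this mark of the strain. The 12 measured adipocyte markers averaged 12.1 in BALB/cJ controls (median of mice) and 12.1 in the other controls, with ranges of 11.97 to 12.19 and 11.83 to 12.33. Epididymis markers were low in BALB/cJ controls, with means of 4.89 to 5.30, while 2 other control arrays (DBA/2J mice 3 and 4) stood apart by them. More CR arrays stood apart by epididymis or testis markers: C57BL/6J mice 2 and 3, CBA/J mice 5 and 6 and DBA/2J mice 1, 2, 4, 5, 6 and 8. BALB/cJ CR mouse 3 stood apart by vas deferens and seminal vesicle markers. The CR groups used as a reference below were therefore not free of other tissue. Liver transcripts such as Alb were present in many fat samples of every strain, with a mean over 10 liver genes of 8.19, 9.80 and 10.4 in BALB/cJ controls and 6.32, 8.49 and 11.8 in the others. One BALB/cJ control, mouse 3, stood apart from the 7 others in many measures and is given separately wherever it decides a value.

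BALB/cJ control fat differed from the mean of the other control groups in many genes by small amounts. Of 19938 genes, 2796 (14%) were higher and 2886 (14.5%) lower in BALB/cJ controls at an adjusted p under 0.05 in limma, in all 28.5% of genes. Only 46 genes (0.231%) were higher by at least 1 log2 unit and 95 (0.476%) lower. The median difference over all genes was 0.03. When each other strain was set against the remaining 6 in the same way, 33 (C3H/HeJ) to 230 (DBA/2J) genes differed by at least 1 log2 unit, against 141 (0.707%) for BALB/cJ. At any size, BALB/cJ had the most called genes of the 7 strains in this comparison. In 344 genes (1.73%) BALB/cJ controls were higher than each of the 6 other control groups, and in 392 (1.97%) lower than each. The other strains had 63 to 489 genes higher than each and 21 to 243 lower than each, so 392 was the largest count of lower genes among the 7 strains. For C57BL/6J, C3H/HeJ and B6C3F1/J all these counts include comparisons with related groups, so the rankings are not like for like. All 8 BALB/cJ mice lay above all 48 others in 22 genes (0.11%) and below them in 23 (0.115%).

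The largest difference was in Rarres1, a retinoic acid-induced carboxypeptidase inhibitor homologue. Its log2 signals were 11.23, 11.72 and 12.08 in BALB/cJ controls and 5.27, 6.00 and 7.65 in the other controls, a log2 difference of 5.57 (SE 0.12), or 47.7-fold. Rarres1 was as high in BALB/cJ CR mice, which averaged 11.60, against 6.23 on CR in the other strains. Tst, which encodes the mitochondrial sulfur-transfer enzyme rhodanese, was at 9.53, 10.08 and 10.72 in BALB/cJ controls and 7.72, 8.45 and 9.5 in the others (difference 1.55, SE 0.14, adjusted p = 2.4e-13). Neither gene overlapped between the groups. Mc5r, a melanocortin receptor, was 1.63 higher (SE 0.19) and Tlcd4 2.36 higher (SE 0.34). Both overlapped, since 129S1/SvImJ mice reached 9.46 for Tlcd4 and another control mouse 8.74 for Mc5r, against BALB/cJ ranges of 8.26 to 9.03 and 8.20 to 9.42.

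Of the 12 largest increases above every other strain mean, 5 were in transcripts known chiefly from liver. None of these 5 was called against 129S1/SvImJ or B6C3F1/J controls singly (limma, adjusted p = 0.070 to 0.99). Each was called against C57BL/6J, C3H/HeJ and DBA/2J controls, and Tat also against CBA/J controls. Mup3, a major urinary protein, was 1.86 higher (SE 0.56), Cps1 of the urea cycle 1.63 higher (SE 0.45), Tat, tyrosine aminotransferase, 1.60 higher (SE 0.38), Ugt2b1, a glucuronosyltransferase, 1.60 higher (SE 0.45), and Mug1, a protease inhibitor of plasma, 1.51 higher (SE 0.52). For Mug1 the BALB/cJ controls were at 6.64, 9.40 and 10.32 and the other controls at 5.27, 7.32 and 10.88, so the ranges overlapped almost fully, and Mug1 missed the threshold without mouse 6 or mouse 8 (1.40 and 1.33, adjusted p = 0.055 and 0.069). The 10-gene liver list moved with these genes: its median difference was 1.21, with 3 of its genes higher, 0 lower and 7 not called. Its mean was 9.37 in 129S1/SvImJ controls, the highest of the other strains, and 9.67 in BALB/cJ controls. Tat is a member of this list and among its higher genes, so neither the list nor its mean is independent of Tat. With the liver mean of each array as a covariate, an alternative chosen after seeing the data, the differences of Mup3, Cps1, Tat and Ugt2b1 came to 0.46, 0.54, 0.72 and 0.52, and that of Mug1 to 0.22 (adjusted p = 0.073). In the same fit Cyp7b1, an oxysterol hydroxylase, was still 1.02 higher and C7, a complement component, 1.58 higher.

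Among the 12 largest decreases, 6 genes left no overlap: Zhx2, Cd52 and the 4 given next. Folh1, a folate hydrolase, was at 5.19, 5.86 and 6.64 in BALB/cJ controls, against 7.47, 9.27 and 10.05 in the others (difference -3.16, SE 0.14). Slc5a7, the high-affinity choline transporter, was at 5.08, 5.44 and 5.76 in BALB/cJ controls, against 6.81, 8.47 and 9.81 (difference -3.13, SE 0.19). Fgf13, an intracellular fibroblast growth factor homologue that binds sodium channels, differed by -2.54 (SE 0.12) and Prr32 by -2.33 (SE 0.10). In each of these genes all 8 BALB/cJ mice lay below all 48 others. Kcnj15, a potassium channel, differed by -2.21 (SE 0.12), with 7 of 8 BALB/cJ mice below all others and mouse 3 at the top of its group, at 9.67. The other-strain CR means of Folh1, Slc5a7 and Fgf13 were 8.77, 8.02 and 8.51, far above the BALB/cJ control values. The array's probes follow the C57BL/6J reference sequence, so a variant under a probe can alter the signal of a strain without a change in the transcript, and its part in these genes was not tested.

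**Figure D1:**
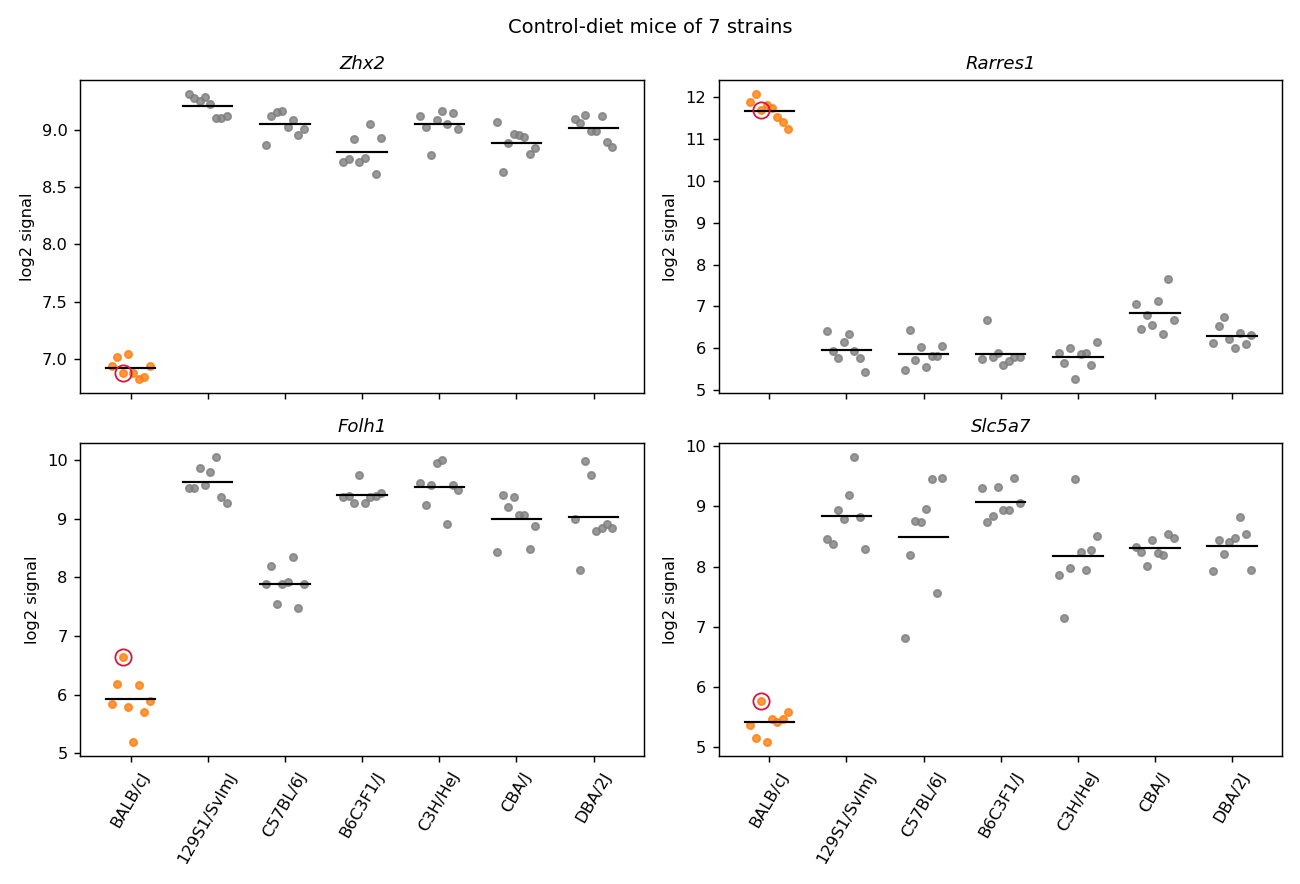
Log2 signal (y axis) of Zhx2, Rarres1, Folh1 and Slc5a7 in each control-diet mouse of 7 strains (x axis), with 1 point per mouse, a black bar for the group mean and a red circle around BALB/cJ mouse 3. The 8 BALB/cJ mice lie above all 48 others for Rarres1 and below all of them for the other 3 genes.

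To place BALB/cJ control fat on the CR scale without using any array for both purposes, the other strains were split in 2 sets. Genes that changed on CR in C57BL/6J, C3H/HeJ and B6C3F1/J were read out in BALB/cJ controls against the control and CR groups of 129S1/SvImJ, CBA/J and DBA/2J, and the reverse. A CR gene had an adjusted p under 0.05, the same sign in the 3 selecting strains and a mean change of at least 0.5 log2 units. The comparisons with control and with CR groups share the BALB/cJ arrays, and the 2 selections share 160 genes that rose and 312 that fell, so neither pair is independent.

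The genes that fall on CR were lower in BALB/cJ controls. Of the 446 genes that fell on CR in C57BL/6J, C3H/HeJ and B6C3F1/J, 319 (71.5%) were lower in BALB/cJ controls than in 129S1/SvImJ, CBA/J and DBA/2J controls and 14 were higher, against 11.1% lower and 10.2% higher of all genes. Their median difference was -0.42 from those controls and 0.18 from the CR groups of the same strains. Of the 507 genes that fell on CR in 129S1/SvImJ, CBA/J and DBA/2J, 331 (65.3%) were lower in BALB/cJ controls than in C57BL/6J, C3H/HeJ and B6C3F1/J controls and 32 were higher, against 14.6% lower and 15.1% higher of all genes, with medians of -0.49 from the controls and 0.17 from the CR groups. Against the CR groups, 170 of the 446 genes were higher in BALB/cJ controls (13.7% of all genes) and 21 lower (11.3%), and 154 of the 507 were higher (15.6%) and 44 lower (15.5%). On this side the BALB/cJ control medians lay between control and CR fat of other strains. Without mouse 3 the counts were 292 lower and 24 higher of 446, and 316 lower and 50 higher of 507. The shares of all genes given here and for the risen genes belong to the fit with mouse 3, not to the fit without it.

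The genes that rise on CR gave a weaker picture. Of 343 that rose in C57BL/6J, C3H/HeJ and B6C3F1/J, 90 (26.2%) were higher and 24 lower in BALB/cJ controls, with 229 not called and a median difference of 0.10. Of all genes, 10.2% were higher and 11.1% lower in this comparison. Without mouse 3, 64 of the 343 were higher and 63 lower, so the excess of higher over lower genes rested on that mouse. Of 188 that rose in 129S1/SvImJ, CBA/J and DBA/2J, 111 (59%) were higher and 2 lower (median 0.39), and without mouse 3, 77 were higher and 8 lower. Here 15.1% of all genes were higher and 14.6% lower. The medians of the 343 and the 188 risen genes from the CR groups were -0.38 and -0.43. From those CR groups, 206 of the 343 genes and 117 of the 188 were lower in BALB/cJ controls, against 11.3% and 15.5% of all genes.

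The 2 sides were also averaged in each mouse. Relative to the mean of the 3 other control groups, the mean of the 343 risen genes was 1.03 in BALB/cJ mouse 3 and -0.20 to 0.10 in the 7 other BALB/cJ controls. For the 446 fallen genes it was -0.76 in mouse 3 and -0.47 to -0.31 in the other 7. The same fallen genes averaged -0.04, 0.18 and -0.14 in 129S1/SvImJ, CBA/J and DBA/2J controls and -0.69, -0.82 and -0.53 in their CR mice. With the other selection, the 188 risen genes were at 1.52 in mouse 3 and 0.05 to 0.37 in the other 7, and the 507 fallen genes at -0.86 in mouse 3 and -0.45 to -0.23 in the other 7. C57BL/6J controls were at -0.26 for these 507 genes, C3H/HeJ controls at -0.08 and B6C3F1/J controls at 0.33, and single mice of C57BL/6J and C3H/HeJ overlapped BALB/cJ controls, with lowest values of -0.61 and -0.49. For the 446 genes the lowest DBA/2J and 129S1/SvImJ controls, at -0.51 and -0.33, overlapped them too.

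A CR index, the mean log2 signal of risen genes minus that of fallen genes, combined both sides. With genes from C57BL/6J, C3H/HeJ and B6C3F1/J it was 0.68 ± 0.51 in BALB/cJ controls (SD, n = 8), with a lowest value of 0.35, a median of 0.54 and a highest of 1.92 in mouse 3. It was -0.03, 0.13 and 0.30 in 129S1/SvImJ, CBA/J and DBA/2J controls and 1.35, 1.73 and 1.03 in their CR mice, so that BALB/cJ controls lay at 44.5% of the way from control to CR, or 30.2% without mouse 3. With genes from the other 3 strains it was 0.72 ± 0.65 in BALB/cJ controls (0.28, 0.50 and 2.30), against 0.09, 0.19 and -0.50 in C57BL/6J, C3H/HeJ and B6C3F1/J controls and 1.39, 1.5 and 1.68 in their CR mice, which is 49.7% of the way, or 35.6% without mouse 3. Only mouse 3 lay above every other control mouse in either index. In the first index the highest other control, at 0.85, was DBA/2J mouse 3, which stood apart by epididymis markers. The next, DBA/2J mouse 8 at 0.59, lay below BALB/cJ mice 4 and 7, at 0.62 and 0.61. Of the 8 BALB/cJ controls, 7 lay below every CR mouse of the other strains by the first index and 5 by the second. Mouse 3 lay within the first index's range of CR mice of the other strains and, in the second, above the CR mice of the 3 other strains, although it is labelled control. The BALB/cJ CR mice ranged from 0.19 to 2.13 in the first index and from 0.43 to 2.60 in the second. The CR end of each index averaged groups of unequal restriction. The first included 129S1/SvImJ and the second C57BL/6J, whose CR rations were cut further. The index was used as a description, without a test.

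**Figure D2:**
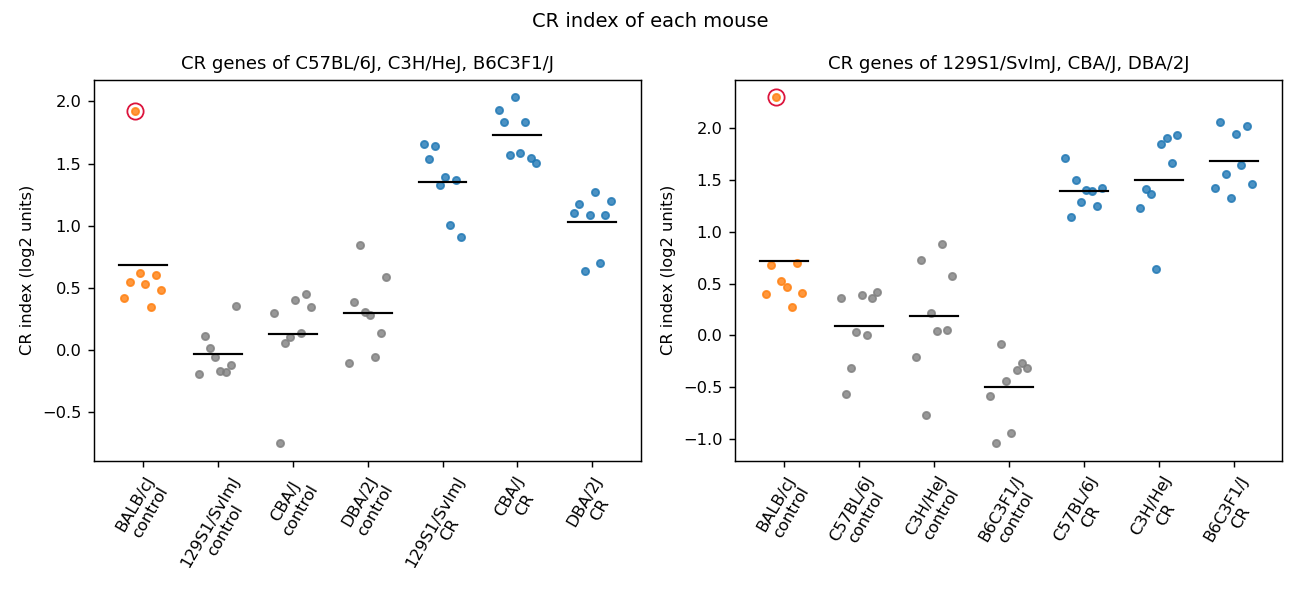
CR index in log2 units (y axis) of each mouse by strain and diet (x axis), from CR genes of C57BL/6J, C3H/HeJ and B6C3F1/J (left) and of 129S1/SvImJ, CBA/J and DBA/2J (right), with BALB/cJ controls in orange, other controls in grey, CR mice in blue and a black bar for the group mean. The BALB/cJ medians are 0.54 and 0.50, and the circled mouse 3 is at 1.92 and 2.30.

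Single genes showed how differently the CR genes were placed. Thbs1, the matrix glycoprotein thrombospondin, was at 7.74, 9.82 and 10.12 in BALB/cJ controls and 9.21, 11.62 and 12.56 in the others (difference -2.01, SE 0.22), and it averaged 9.38 on CR in the other strains. Unc5a, a netrin receptor, was at 8.61, 8.96 and 10.98 in BALB/cJ controls and 6.10, 8.14 and 9.28 in the others (difference 1.45, SE 0.15), and Unc5a was 1.36 above the CR groups of 129S1/SvImJ, CBA/J and DBA/2J and differed by -1.02 from those of C57BL/6J, C3H/HeJ and B6C3F1/J. Thbs1 differed by 0.19 and -0.08 from the same CR groups, neither of which passed the test. Kcnk2, a potassium channel of the background current, was 1.29 higher in BALB/cJ controls (SE 0.07), and no BALB/cJ mouse, at 8.09 to 8.55, overlapped the others, at 6.59 to 7.71. Its CR mean elsewhere was 7.52, so the BALB/cJ value went beyond CR. Gsta3, a glutathione transferase, and the long noncoding RNA Snhg11 were 1.24 and 1.43 higher (SE 0.16 and 0.10), with CR means elsewhere of 9.58 and 8.74, against BALB/cJ control medians of 10.28 and 9.67.

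Other CR genes lay on the opposite side. Cryab, a small heat shock protein that rose on CR in the first set, was at 8.34, 8.66 and 8.90 in BALB/cJ controls and 8.57, 10.25 and 11.62 in the others (difference -1.52, SE 0.09). Cyp2r1, the vitamin D 25-hydroxylase, differed by -0.99 (SE 0.15) and Mal2, a membrane trafficking protein, by -0.96 (SE 0.14). Both rose on CR in the first set. In both, mouse 3 was the highest BALB/cJ control, at 6.77 and 9.07, against group medians of 4.82 and 7.39. C7 and Cyp7b1, which fell on CR, were 1.48 and 1.5 higher in BALB/cJ controls (SE 0.21 and 0.24).

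Macrophage transcripts had the lowest median difference of the 57 lists described. Of 23 measured macrophage genes, 21 were lower in BALB/cJ controls and 1, Mertk, was higher, with a median difference of -0.86, against 0.03 over all genes. Only 2 of the 23 were lower than each of the 6 other control groups singly. In whole fat, fewer macrophages and less RNA per macrophage cannot be told apart. The mean of the list was 8.50, 8.66 and 8.94 in BALB/cJ controls and 8.40, 9.46 and 10.5 in the others. Every BALB/cJ mouse lay below each of the 6 other strain means, of which the lowest was 9.12 in DBA/2J and the highest 10.1 in B6C3F1/J, although single DBA/2J and C57BL/6J mice reached the BALB/cJ range. The list averaged 8.63 in the CR mice of the other strains and 8.68 in BALB/cJ CR mice.

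Within the list, Adgre1, the macrophage surface marker F4/80, was at 8.22, 8.64 and 9.02 in BALB/cJ controls and 8.36, 9.66 and 10.85 in the others (difference -1.0, SE 0.15), beside 8.72 on CR elsewhere. Itgax, the integrin CD11c of macrophages in expanded fat and of dendritic cells, was at 7.01, 7.29 and 7.74 in BALB/cJ controls and 6.92, 8.86 and 11.12 in the others (difference -1.62, SE 0.21), beside 7.29 on CR elsewhere. Itgax was lower than in 4 of the 6 strains, since C57BL/6J and 129S1/SvImJ mice reached the same values. Lgals3, galectin 3, differed by -1.21 (SE 0.14), Cybb, the phagocyte oxidase subunit, by -1.14 (SE 0.13), and Cd68, a lysosomal marker, by -0.92 (SE 0.17). Lgals3 was lower than in each of the 6 strains singly, Cybb than in 5 and Cd68 than in 3. Neither Cybb nor Cd68 was called against C57BL/6J controls. Mertk, the receptor by which resident macrophages take up dying cells, was 0.41 higher (SE 0.08) and higher than 3 strains singly. Cd163, a scavenger receptor of resident macrophages, differed by 0.17 (SE 0.08, adjusted p = 0.096), and it passed without mouse 3 or mouse 8 (0.24 each, adjusted p = 0.012 and 0.017).

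Related lists differed in extent. Of 20 genes of lipid-associated macrophages, the cells that take up lipid in expanded fat, 14 were lower and 1 higher (median -0.45). Trem2, their lipid receptor, differed by -1.22 (SE 0.17), Atp6v0d2, a proton pump subunit, by -1.53 (SE 0.27) and Tm4sf19 by -1.46 (SE 0.21). For these 3 genes C57BL/6J controls, at 8.00, 7.89 and 7.76, were near the BALB/cJ control means of 8.15, 7.95 and 7.60. Of 16 resident macrophage genes, 5 were lower and 0 higher (median -0.09). Among lymphocyte lists, 6 of 17 T cell genes, 6 of 13 NK cell genes and 2 of 13 B cell genes were lower and none was higher, with medians of -0.14, -0.15 and -0.01, the B cell share being near the 14.5% of all genes. Retnla, a secreted product of alternatively activated macrophages, was at 9.24, 9.72 and 10.54 in BALB/cJ controls and 10.46, 11.18 and 12.06 in the others (difference -1.37, SE 0.12), with 7 of 8 BALB/cJ mice below all others. Retnla averaged 10.84 on CR elsewhere, above the highest BALB/cJ control.

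Antigen presentation genes followed. Of 10 measured MHC class II genes, 7 were lower, 1 higher and 2 not called (median -0.74). H2-Ab1, the beta chain of I-A, was at 8.68, 9.16 and 9.44 in BALB/cJ controls and 9.39, 11.02 and 12.14 in the others (difference -1.80, SE 0.12), and lower than in each strain. The invariant chain Cd74 was at 10.12, 10.77 and 11.02 in BALB/cJ controls and 10.84, 11.77 and 12.46 in the others (difference -1.08, SE 0.11). H2-DMa, which loads peptides, differed by -1.12 (SE 0.13), the chains H2-Aa and H2-Eb1 by -0.87 and -0.86 (SE 0.12 and 0.11), the class II transactivator Ciita by -0.63 (SE 0.09) and H2-Ob by -0.29 (SE 0.08). H2-Oa and H2-Eb2 differed by -0.17 and -0.12 and did not pass the test, although H2-Oa passed without mouse 7 or mouse 8 (-0.19 and -0.22, adjusted p = 0.037 and 0.012). H2-Ea, the alpha chain of I-E, was the exception at 1.60 (SE 0.12), because its mean was 5.81 in 129S1/SvImJ and as low in C57BL/6J, strains of the b haplotype known not to transcribe it. BALB/cJ controls, at 10.87, 11.61 and 11.70, were higher than these 2 strains and lower than 2 of the other 4. MHC haplotypes differ among these strains, and whether probe sequence contributes to these differences was not tested.

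**Figure D3:**
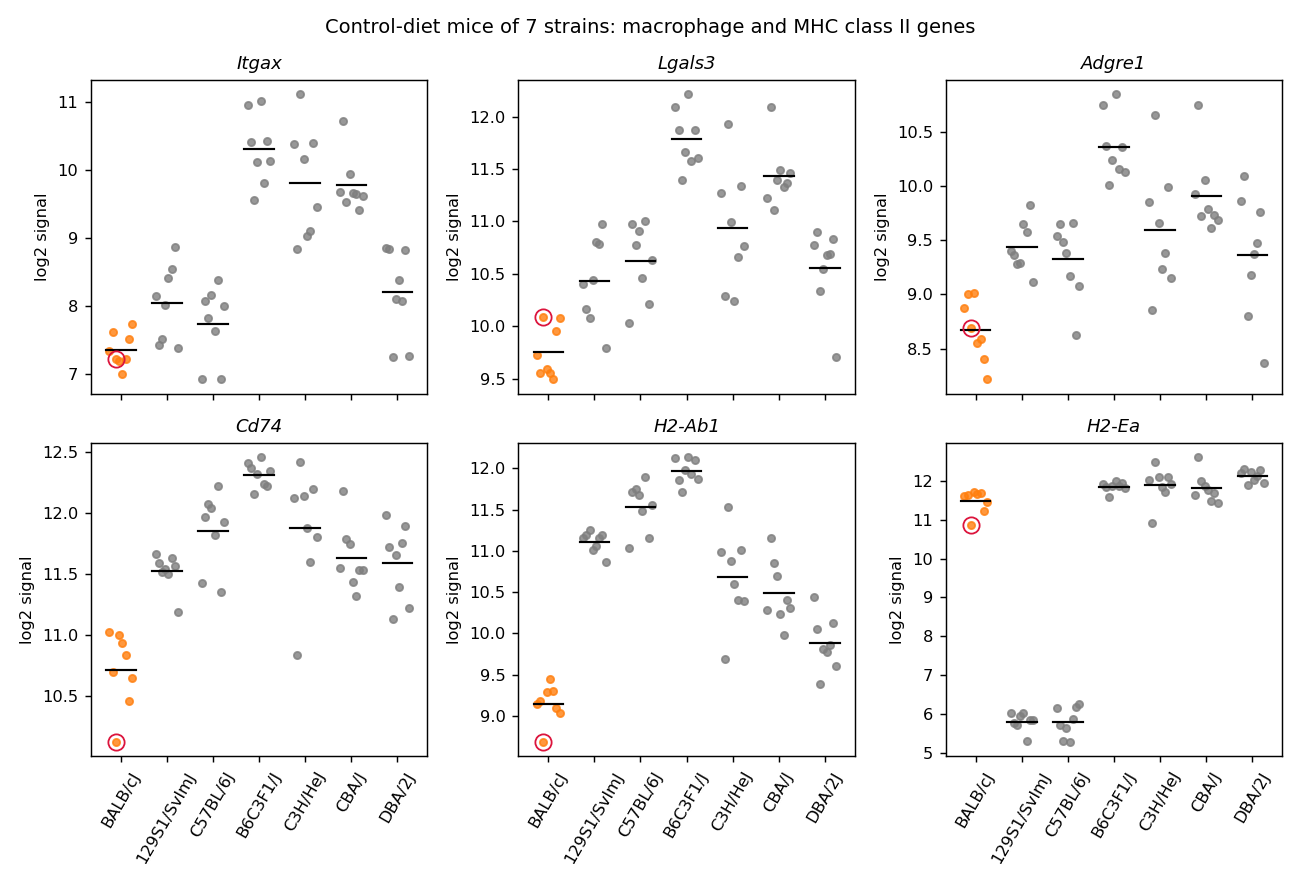
Log2 signal (y axis) of 3 macrophage genes (top) and 3 MHC class II genes (bottom) in each control-diet mouse of 7 strains (x axis), with a black bar for the group mean and a red circle around BALB/cJ mouse 3. BALB/cJ medians of 7.29 for Itgax, 9.66 for Lgals3, 8.64 for Adgre1, 10.77 for Cd74 and 9.16 for H2-Ab1 lie below the medians of the other controls, while H2-Ea is low in 129S1/SvImJ and C57BL/6J alone.

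Among signals between cells, 17 of 33 cytokine and chemokine genes were lower and 4 higher (median -0.21). The monocyte-attracting chemokine Ccl7 was at 7.16, 7.29 and 7.52 in BALB/cJ controls and 7.19, 8.07 and 9.23 in the others (difference -0.87, SE 0.13), Ccl9 differed by -0.85 (SE 0.12) and the interferon-induced Cxcl9 by -0.70 (SE 0.09). Il33, an alarmin of stromal cells that sustains regulatory T cells in fat, was 0.60 higher (SE 0.14), with 3 BALB/cJ mice above all others. Of 21 complement genes, 11 were lower and 2 higher (median -0.30, or -0.19 without mouse 3). Cd52, a surface glycoprotein of leukocytes, was at 7.03, 7.22 and 7.40 in BALB/cJ controls and 7.72, 9.0 and 11.91 in the others, without overlap (difference -1.83, SE 0.22). Clec12a, an inhibitory lectin of myeloid cells, differed by -1.65 (SE 0.18), Cd180, a toll-like receptor homologue of B cells and macrophages, by -1.63 (SE 0.18), and Lbp, which binds lipopolysaccharide, by -1.5 (SE 0.16). Cd52, Clec12a and Cd180 averaged 8.27, 7.10 and 8.22 on CR elsewhere, each above the BALB/cJ control median of 7.22, 6.73 and 7.58.

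Leptin and the genes of fat expansion were lower as well. Lep was at 10.14, 10.67 and 11.21 in BALB/cJ controls and 11.07, 11.92 and 12.38 in the others (difference -1.15, SE 0.10, adjusted p = 2.4e-13), a 2.21-fold lower signal, and 5 of 8 BALB/cJ mice lay below all others. The Lep mean of the other strains on CR was 11.35, still above the BALB/cJ control median. Mest and Peg3, imprinted genes that track adipocyte enlargement, differed by -1.15 and -1.14 (SE 0.18 each). Mouse 3 was at 8.49 for Mest and 7.54 for Peg3, against medians of 11.76 and 10.04, and without it the differences were -0.76 and -0.84. Of 12 expansion genes 7 were lower and 0 higher (median -0.16, or -0.12 without mouse 3).

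Of the 17 adipokine genes, 5 including Lep were lower and 3 higher (median -0.03, or -0.07 without mouse 3), beside 14.5% lower and 14% higher of all genes. Agt, angiotensinogen, differed by -0.92 (SE 0.10), Lcn2, lipocalin 2, by -1.01 (SE 0.24), Metrnl by -0.41 (SE 0.09) and the retinol carrier Rbp4 by -0.31 (SE 0.08, or -0.17 without mouse 3). Nampt, the enzyme that salvages nicotinamide and is also secreted, was at 10.03, 10.23 and 10.90 in BALB/cJ controls and 9.02, 9.44 and 10.09 in the others (difference 0.81, SE 0.08), beside 10.12 on CR elsewhere. Resistin, Retn, was 0.19 higher (SE 0.04) and apelin, Apln, 0.27 higher (SE 0.08). Adiponectin, Adipoq, was at 12.41, 12.83 and 13.02 in BALB/cJ controls and 12.61, 12.88 and 13 in the others, a difference of -0.03 (SE 0.04, or 0.02 without mouse 3) that did not pass the test.

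Matrix and proliferation genes were lower in part. Of 35 collagen and matrix genes, 21 were lower and 1 higher (median -0.24). Col12a1 was at 7.18, 7.33 and 7.52 in BALB/cJ controls and 6.87, 8.43 and 9.33 in the others (difference -1.03, SE 0.12), and Lox, which crosslinks collagen, differed by -0.69 (SE 0.10). Of 29 cell cycle genes, 15 were lower and 0 higher (median -0.23). Mcm6, of the replicative helicase, differed by -0.78 (SE 0.08) and Mki67, the proliferation marker, by -0.43 (SE 0.11). For both genes the 129S1/SvImJ control means, 6.87 and 6.51, were near the BALB/cJ means of 6.75 and 6.57. Of 24 cytosolic ribosomal protein genes, 10 were lower and 1 higher (median -0.12).

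**Figure D4:**
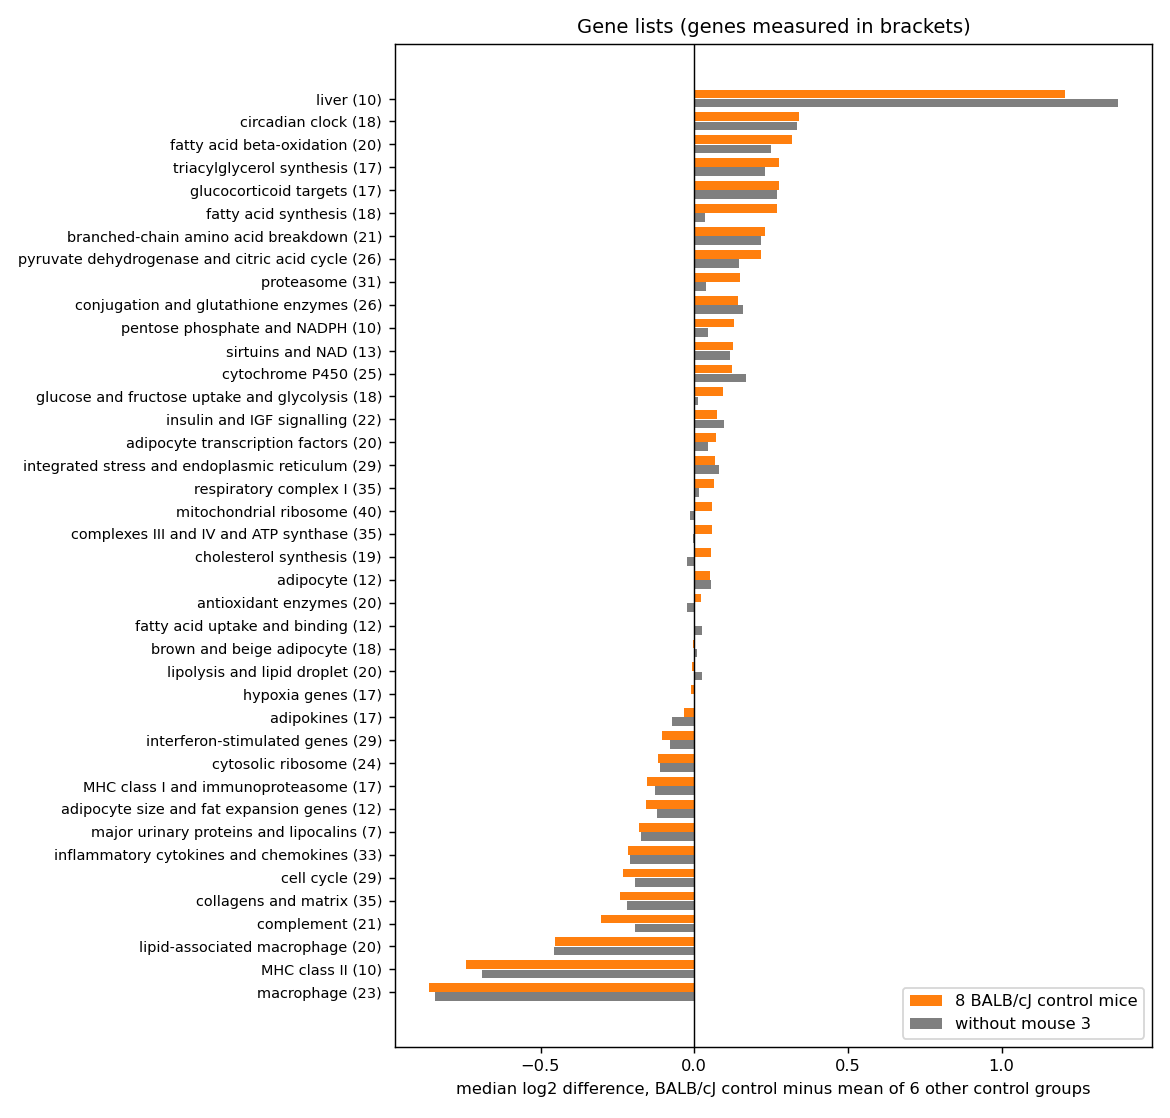
Median log2 difference, BALB/cJ control minus the mean of 6 other control groups (x axis), of the pathway lists and 4 cell type lists (y axis, genes measured in brackets), with all 8 BALB/cJ mice in orange and without mouse 3 in grey. The macrophage median is -0.86 and the liver median 1.21, and the fatty acid synthesis median is 0.27 with mouse 3 and 0.03 without it.

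Fatty acid synthesis genes did not share the position of the macrophage genes. Of 18 measured genes, 7 were higher and 1 lower in BALB/cJ controls (median 0.27), but the median was 0.03 without mouse 3. The mean of the list was 12.1 in mouse 3 and 10.2, 10.6 and 12.1 over the 8 BALB/cJ controls (lowest, median and highest), against 9.92, 10.3 and 11.5 in the other controls and 11.6 on CR elsewhere. Mouse 3 alone was at the CR level. The other strains themselves spread widely, with means of 10.1 in C57BL/6J controls and 11 in CBA/J controls.

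Acly, ATP-citrate lyase, which supplies cytosolic acetyl-CoA, was at 9.22, 9.88 and 13 in BALB/cJ controls and 9.13, 9.78 and 11.86 in the others, a difference of 0.10 (SE 0.24) that did not pass, beside 12.36 on CR elsewhere. Elovl6, a fatty acid elongase, differed by 0.31 (SE 0.29), Fasn, fatty acid synthase, by 0.36 (SE 0.14, adjusted p = 0.052) and Acss2, acetyl-CoA synthetase, by 0.03 (SE 0.20), and none passed. Without mouse 3 the differences of Acly, Elovl6 and Acss2 were -0.31, -0.08 and -0.27. Fasn passed without mouse 1 or mouse 6 (0.40 and 0.45, adjusted p = 0.042 and 0.015). Acaca, the first committed enzyme, was 0.62 higher (SE 0.20, adjusted p = 0.012), and without mouse 3 the difference was 0.44 (adjusted p = 0.085). Thrsp, a lipogenic regulator, was 0.79 higher (SE 0.26), and without mouse 3 the difference was 0.57 (adjusted p = 0.11). Acacb, the mitochondrial isoform that limits fatty acid entry into mitochondria, was at 10.50, 10.83 and 11.55 in BALB/cJ controls and 8.63, 10.19 and 11.35 in the others (difference 0.86, SE 0.15, or 0.77 without mouse 3), beside 10.74 on CR elsewhere.

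Triacylglycerol synthesis and fatty acid and amino acid oxidation were higher by small amounts in most BALB/cJ mice. Of 17 triacylglycerol synthesis genes, 9 were higher and 0 lower (median 0.28, or 0.23 without mouse 3). Dgat1, which adds the last acyl chain, was at 11.48, 11.65 and 11.80 in BALB/cJ controls and 10.68, 11.18 and 11.58 in the others (difference 0.46, SE 0.07), with 6 of 8 BALB/cJ mice above all others, and Gpat4, which adds the first, was 0.45 higher (SE 0.06). Of 20 beta-oxidation genes, 15 were higher and 1 lower (median 0.32, or 0.25 without mouse 3). Acaa2, the thiolase of the last step, was 0.56 higher (SE 0.08) and Acot2, a mitochondrial thioesterase, 0.51 higher (SE 0.07). Of 21 genes of branched-chain amino acid breakdown, 15 were higher and 0 lower (median 0.23, or 0.22 without mouse 3). Bcat2, the mitochondrial transaminase of the first step, was at 10.43, 10.64 and 11.12 in BALB/cJ controls and 9.22, 9.93 and 10.41 in the others, without overlap (difference 0.76, SE 0.07), beside 10.41 on CR elsewhere. The carboxylase subunits Mccc1 and Mccc2 of leucine breakdown were 0.63 and 0.52 higher (SE 0.07 and 0.05).

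Of 20 lipolysis and lipid droplet genes, 5 were higher and 3 lower (median -0.01, or 0.03 without mouse 3). Of all genes, 14% were higher and 14.5% lower. Abhd5, the coactivator of the triacylglycerol lipase ATGL, did not overlap, at 10.63, 10.81 and 11.04 in BALB/cJ controls and 9.66, 10.08 and 10.62 in the others (difference 0.72, SE 0.06), and its CR mean elsewhere, 10.28, lay below the BALB/cJ range. Of 26 genes of pyruvate dehydrogenase and the citric acid cycle, 15 were higher and 1 lower (median 0.22, or 0.15 without mouse 3). For complex I, 6 of 35 were higher, near the 14% of all genes, and 1 lower (median 0.07, or 0.02 without mouse 3). For complexes III and IV and ATP synthase 9 of 35 were higher and 2 lower (median 0.06, or -0.01 without mouse 3). Of 31 proteasome genes, 15 were higher and 1 lower, with a median of 0.15, or 0.04 without mouse 3.

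**Figure D5:**
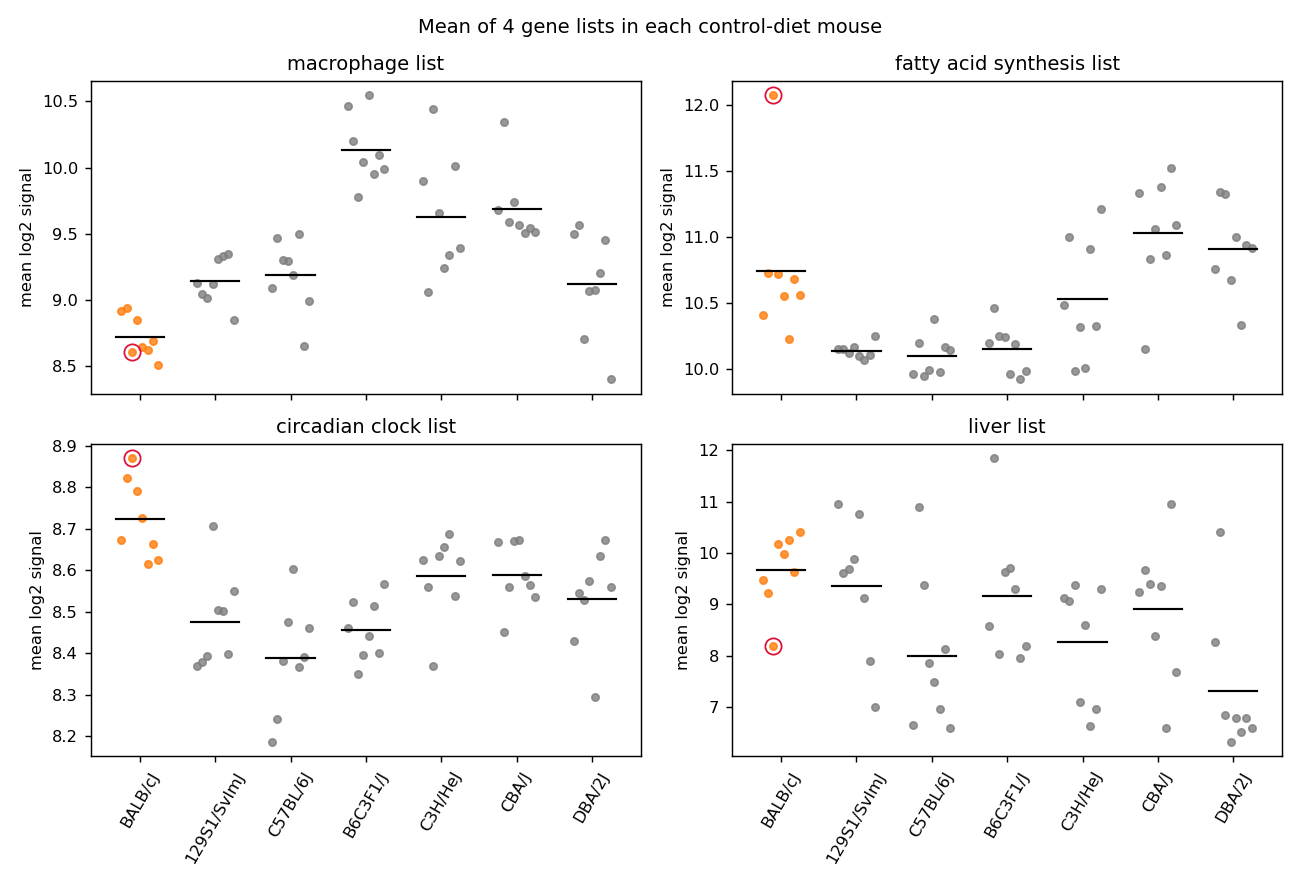
Mean log2 signal (y axis) of the macrophage, fatty acid synthesis, circadian clock and liver lists in each control-diet mouse of 7 strains (x axis), with a black bar for the group mean and a red circle around BALB/cJ mouse 3. Mouse 3 stands alone in fatty acid synthesis at 12.1, lies among the other BALB/cJ mice in macrophage genes and is the lowest of them in liver genes at 8.19.

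Clock genes formed a further group. The clock is a loop in which CLOCK and BMAL1, encoded by Clock and Arntl, bind E-boxes and switch on Per, Cry and Nr1d genes, whose products repress the loop. Of 18 measured clock genes, 10 were higher in BALB/cJ controls and 3 lower (median 0.34, or 0.33 without mouse 3). Stretches before the start sites of 4 of the higher genes are shown because each holds the E-box CACGTG, which is its own reverse complement, so that 1 search covers both strands. They are 30 bases each from the RefSeq promoter windows of build GRCm38.p6, written 5′ to 3′ on the gene's strand with the E-box in capitals.
Ciart: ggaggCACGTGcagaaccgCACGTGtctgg
Cry1: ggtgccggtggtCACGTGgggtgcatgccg
Per1: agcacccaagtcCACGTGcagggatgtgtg
Tef: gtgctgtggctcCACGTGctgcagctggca
They lie at chr3:95882262-95882291 (minus strand) for Ciart, chr10:85185097-85185126 (minus strand) for Cry1, chr11:69098771-69098800 (plus strand) for Per1 and chr15:81802534-81802563 (plus strand) for Tef, with the first E-box shown starting 58, 60, 166 and 127 bases before the start site. Ciart has 3 E-boxes in its 250 bases. Of the 16 clock genes with a window, 4 of the 9 higher ones and 1 of the 7 others held the motif within 250 bases before the start, and 6.02% of 32851 windows did. The clock counts are of genes and the 6.02% is of windows, so they cannot be compared directly. A match describes these letters and shows no binding.

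Per3, a period gene of the repressing arm, was at 9.31, 9.37 and 9.57 in BALB/cJ controls and 8.14, 8.80 and 9.32 in the others (difference 0.61, SE 0.09), with 7 of 8 mice above all others. Per2, another, was 0.53 higher (SE 0.09), and Ciart, a repressor of CLOCK and BMAL1, was at 6.71, 7.28 and 7.53 in BALB/cJ controls and 5.01, 6.64 and 7.69 in the others (difference 0.69, SE 0.20). Nr1d2, a nuclear receptor that represses Arntl, was 0.44 higher (SE 0.06), Rora, which activates it, 0.48 higher (SE 0.04), and Cry1, Tef and Per1 0.33, 0.35 and 0.30 higher (SE 0.05, 0.07 and 0.09). The 3 lower genes were Arntl (-0.39, SE 0.13), Nr1d1 (-0.36, SE 0.10) and Clock (-0.15, SE 0.05). Arntl missed the threshold without mouse 2 (-0.35, adjusted p = 0.057) or mouse 4 (-0.33, adjusted p = 0.074), and Clock without any one of mice 4 to 7 (adjusted p = 0.060 to 0.10). Per and Arntl genes peak at different times of day, and the hour at which each mouse was killed is not given in the sources used here.

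Glucocorticoid-responsive genes were higher, 9 of 17, with none lower (median 0.28). The largest of these differences was in Tat, given above among the transcripts known chiefly from liver. Fkbp5, a co-chaperone of the glucocorticoid receptor, was at 8.11, 8.68 and 9.05 in BALB/cJ controls and 7.01, 7.68 and 9.47 in the others (difference 0.85, SE 0.16). Errfi1, an inhibitor of the epidermal growth factor receptor, was 0.88 higher (SE 0.13) and Klf9, a transcription factor, 0.55 higher (SE 0.06). In all 3 genes 129S1/SvImJ had the highest mean of the other strains, 8.65, 10.45 and 10.47, close to the BALB/cJ means of 8.67, 10.77 and 10.34. These genes averaged 8.00, 9.68 and 9.67 on CR elsewhere, below BALB/cJ controls. Hspa1a and Hsph1, heat shock chaperones, were also higher, by 1.34 and 0.95 (SE 0.17 and 0.15), with a wide range of 8.01 to 10.85 for Hspa1a among BALB/cJ controls and 7.39 to 9.28 among the others.

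Values were compared for the 10 measured here of the 11 white fat markers that the study took to quantitative PCR, a list chosen on these samples. In BALB/cJ controls 4 were higher and 1, Cd68, was lower. Nampt was 0.81 higher. Acaca, Gpd2 and Slc2a4 were 0.62, 0.61 and 0.33 higher, and without mouse 3 the differences of Gpd2, mitochondrial glycerol-3-phosphate dehydrogenase, and Slc2a4, the insulin-regulated glucose transporter, were 0.33 and 0.23 (adjusted p = 0.094 and 0.078). Acss2, Me1, Ndufs4, Parm1 and Ifi27l2a differed by 0.03, 0.23, 0.14, 0.12 and -0.21 and did not pass, and without mouse 3 by -0.27, 0.02, 0.04, -0.16 and 0.11. Parm1 was at 11.26 in mouse 3 and had a median of 9.01 over the 8 BALB/cJ controls, against a CR mean of 10.74 elsewhere, and the 7 other BALB/cJ controls lay within the range of the other controls, 8.10 to 10.85.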

How the data were processed

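Each mouse gave 1 sample of epididymal fat RNA, hybridized to its own Affymetrix Mouse Gene 1.0 ST array. The authors made the values with RMA-Sketch in Affymetrix Expression Console, and the deposited values are log2 signals, already background-corrected, normalized and summarized per probe set, so they were not normalized again. The array number limits precision, and RMA compresses differences of dim genes. Of 35556 probe sets, 21789 paired with 1 gene symbol in the platform annotation given, 1621 with several and 12146 with none listed. The last 2 kinds were not used. For 999 genes with several probe sets the brightest over all 112 arrays was kept, giving 19938 genes. Array medians ran from 6.72 to 6.86, correlations between control arrays from 0.932 to 0.996, and no 2 arrays held identical values.

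The 56 control arrays, with 1 mean per strain, were fitted in limma 3.58.1 (R 4.3.3) with empirical Bayes variances. The contrast was BALB/cJ minus the equally weighted mean of the 6 other groups, two-sided, with Benjamini-Hochberg adjustment over all genes. Every adjusted p in the text comes from limma. CR genes were selected and placed in separate fits, and no test was run on gene lists or on the CR index. The labels do not say whether mice shared litters, so p-values measure the spread between these mice. The labels and sources used here give no scan or extraction batch. Tables were made with pandas 2.3.3 and figures with matplotlib 3.10.9. The contrasts were tested on simulated data.

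Named were the 12 largest differences above and the 12 largest below every other strain mean, up to 6 called genes per list, the study's quantitative PCR markers of white fat, up to 6 CR genes on each side per selection, and all adipokine and MHC class II genes. The text gives a part of these. Adgre1, Mertk, Cd163, Acly, Elovl6, Fasn, Cry1, Per1, Tef, Arntl, Nr1d1 and Clock stand outside this rule and were chosen as familiar members of their lists after their values were seen. The 57 lists (1145 genes, 1038 measured) cover pathways, cell types, the study's markers and strain variants. The members and lists were chosen with earlier results of these data known. Alternatives varied the probe set rule, centring, quantile normalization, dim genes, array weights, variance trend, the arrays fitted, the size thresholds, a replicate block, single mice and single strains.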

Additional observations from a re-analysis of the deposited data

Results flagged for a closer look

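In 46 of 142 measures of the 8 BALB/cJ control mice (2 CR indices, 21 gene lists and 119 genes), 1 mouse stood apart, with a gap to its neighbour above Dixon's 95% critical share of the group's range. Chance flags about 1 in 20 groups. Mouse 3 was the outlying mouse in 44 of the 46, and these measures are related to each other.

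In the CR index of mouse 3 the gap was 0.828 of the range with genes of the first 3 strains (1.92, next 0.62) and 0.792 with genes of the other 3 (2.30, next 0.70). Among lists mouse 3 stood apart in fatty acid synthesis (0.728), triacylglycerol synthesis (0.587), pyruvate dehydrogenase and the citric acid cycle (0.725), complex I (0.69), beta-oxidation (0.641), collagens and matrix (0.683), cytokines and chemokines (0.535), MHC class II (0.688), the proteasome (0.759) and the later respiratory complexes with ATP synthase (0.698).

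Among single genes mouse 3 was the highest BALB/cJ control, by the same share of the range, in Acaa2 (0.65), Acaca (0.528), Acly (0.736), Acss2 (0.714), Adap1 (0.709), Cyp2r1 (0.646), Elovl6 (0.589), Gpd2 (0.7), Kcnj15 (0.637), Lcn2 (0.581), Lipf (0.664), Mal2 (0.57), Me1 (0.639), Mtarc1 (0.705), Nampt (0.538), Ndufs4 (0.61), Parm1 (0.877), Slc2a4 (0.596), Thrsp (0.577) and Unc5a (0.714). Mouse 3 was the lowest in Adipoq (0.57), Ccl9 (0.654), Cyp7b1 (0.676), H2-Aa (0.7), H2-Eb1 (0.759), Ifi27l2a (0.679), Mest (0.723), Peg3 (0.635), Per1 (0.701), Rbp4 (0.629), Sfrp5 (0.772) and Tat (0.53).

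In 2 genes another mouse stood apart, Clock in mouse 1 (0.551) and Mc5r in mouse 7 (0.59). Zhx2 was at 6.87 in mouse 3, inside the BALB/cJ range, and the source of its other values was not tested.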

How the results depend on the processing

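The number of arrays, 8 per group, and 1 outlying BALB/cJ control limit these results, and strain, ration and any unrecorded batch cannot be told apart. Of 119 genes under 26 alternatives, 106 were called and 0 of these reversed, 16 of the 106 lost the call somewhere and 6 gained it. The median of all genes stayed at 0.02 to 0.03 when arrays were centred or quantile normalized. Leaving out 1 other strain cost the call of Per1 (without CBA/J, 0.21, adjusted p = 0.12), Apln and Slc2a4 (without 129S1/SvImJ, 0.20 and 0.26), Acaca (without B6C3F1/J, 0.49), Thrsp (without either, 0.68 and 0.64), H2-Ob (without C57BL/6J, -0.20), Mug1 (without DBA/2J, 1.22), Clock (without 129S1/SvImJ, -0.11) and Arntl (without 129S1/SvImJ, C57BL/6J or B6C3F1/J, -0.33, -0.26 and -0.36). Counts not given here kept within 1.5 times of those reported.

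Without each BALB/cJ control mouse in turn, 2512 to 2769 genes were higher and 2637 to 2871 lower than the mean of the other groups, and 291 to 381 higher and 348 to 416 lower than each. The CR index lay 0.37 to 0.60 and 0.57 to 0.86 above the other controls, from 0.55 and 0.79 with all mice. Of genes that rose on CR in C57BL/6J, C3H/HeJ and B6C3F1/J, 64 to 106 were higher and 16 to 63 lower, and of those that fell, 12 to 24 were higher and 292 to 318 lower. Of genes that rose in 129S1/SvImJ, CBA/J and DBA/2J, 77 to 115 were higher and 1 to 8 lower, and of those that fell, 24 to 50 were higher and 316 to 334 lower. In each of these 4 pairs of counts mouse 3 gave the value nearest to balance.

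Called at 1 log2 unit or more, 46 genes were higher and 95 lower than the mean, and 9 and 8 than each group. With CR genes of any size, 689 were higher and 341 lower (risen, first 3 strains), 234 and 960 (fallen), 1146 and 175 (risen, other 3) and 283 and 1416 (fallen). With a CR change of at least 1, these counts were 9 and 6, 0 and 62, 14 and 0, and 6 and 54. Smaller counts moved too: risen genes of the first 3 strains lower in BALB/cJ were 53 with array weights, fallen ones higher were 9 with centred arrays and 9 without arrays holding epididymis or testis transcripts. Of the other 3 strains, risen genes lower were 1 with all 112 arrays in 1 fit and 10 with array weights, and fallen genes higher were 20 without dim genes and 5 with the liver covariate. Apart from the size thresholds, which change the genes counted, the cause was not tested.

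Replicate numbers were not taken to pair the mice, since neither the labels nor every pair bore this out: same-number pairs in different groups had a mean correlation of 0.088 (lowest -0.497, 168 pairs), against -0.012 for other pairs, and 15 of 56 arrays were closest to their own number. With the replicate block, 3053 genes were higher and 3047 lower than the mean, 370 and 438 than each, and the 4 placements gave 97 and 24, 15 and 323, 113 and 3, and 38 and 333 genes higher and lower. Without genes of the immune lists, an alternative chosen after seeing the data like the liver covariate, they gave 88 and 24, 11 and 277, 111 and 2, and 31 and 278.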

Other observations

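Among lists not described above, 11 of 26 conjugation and glutathione enzyme genes were higher in BALB/cJ controls and 4 lower, with a median difference of 0.14 (0.16 without mouse 3). Of 13 sirtuin and NAD genes, 6 were higher and 0 lower (median 0.13), with a list mean of 8.76, 8.83 and 9.0 in BALB/cJ controls (lowest, median and highest) and 8.43, 8.62 and 8.76 in the other controls. Of 29 interferon-stimulated genes, 1 was higher and 8 lower (median -0.10), and of 18 brown and beige adipocyte genes 3 were higher and 3 lower (median 0.00). Of 18 endothelial genes 4 were higher and 2 lower, and of 16 fibroblast and progenitor genes 2 were higher and 4 lower, with medians of -0.03 and -0.07. Beside these counts, 14% of all genes were higher and 14.5% lower, near the shares of the brown and beige list. Lipf, gastric lipase, was at 4.43, 4.66 and 6.23 in BALB/cJ controls and 5.02, 6.50 and 9.13 in the others (difference -1.73, SE 0.23). Hspb7, a small heat shock protein of muscle, differed by -1.63 (SE 0.18), and its mean elsewhere on CR was 7.72, against a BALB/cJ control median of 6.95.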
